A study of Mus musculus with 18 samples.

Results

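The enzymes that write, copy and remove cytosine methylation in hematopoietic stem cells (HSCs) were followed through 10 genes, which were the rows of the deposited count table with the symbols Dnmt1, Uhrf1, Dnmt3a, Dnmt3b, Tet1, Tet2, Tet3, Idh1, Idh2 and Asxl1. These are 10 of the 24421 gene symbols in the table. All 10 were above 0 counts in all 18 libraries and passed the expression filter, a mean normalized level of at least 1 CPM (counts scaled to library size), as did 12808 of the 24421 symbols. RNA had been sequenced from LT-HSCs, ST-HSCs and bulk-HSCs of young and aged mice, with 3 libraries in each of the 6 groups. All groups came from bone marrow of Hoxb5-tri-mCherry mice on a C57BL/6J background, in which the fluorescent protein mCherry reports Hoxb5, with no treatment given. The young animals were aged 2 to 3 months and the old ones 23 to 25 months. Bulk-HSCs were immunophenotypically defined HSCs, LT-HSCs were those with the Hoxb5 reporter and ST-HSCs those without it. Bulk-HSCs thus contain both of the other fractions, and the paper reports relatively fewer ST-HSCs among them in aged mice. In bulk-HSCs a change of this mix with age and a change within like cells cannot be told apart. The average over the fractions includes the bulk-HSC values. The sources used here do not say whether the libraries of a group came from separate mice, and p-values then measure the spread between libraries, which may be technical. They also do not say whether libraries of different fractions came from the same mice. Tests that join the fractions treat their libraries as independent, and their p-values may be too small if mice were shared.

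Dnmt1 is the maintenance methyltransferase that copies the methylation pattern onto the new DNA strand, and Uhrf1 brings it to hemimethylated sites after replication. Dnmt3a and Dnmt3b methylate new sites, and Tet1, Tet2 and Tet3 oxidize 5-methylcytosine in a reaction that consumes oxygen and 2-oxoglutarate, the product of the isocitrate dehydrogenases Idh1 and Idh2. Asxl1 is a chromatin regulator that works with the deubiquitinase Bap1, and mutations of human DNMT3A, TET2 and ASXL1 are common in clonal hematopoiesis. All values below are RNA levels, and no methylation was measured.

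Library totals ran from 16495048 to 22973844 counts, and 3 counts corresponded to 0.131 to 0.182 CPM, a limit that covers counting error only. Young libraries held 11548 to 13876 genes with at least 1 count and aged libraries 13526 to 14133. The lowest 2 values, 11665 and 11548, came from the young LT-HSC and young ST-HSC libraries numbered 3, and results that rest on these libraries are given with and without them. Hoxb5 was between 8.20 and 40.3 CPM in young LT-HSCs and between 18.4 and 26.0 CPM in aged LT-HSCs, above the highest ST-HSC library at 4.56 CPM. In bulk-HSCs it was between 1.72 and 5.61 CPM in young and between 6.17 and 14.1 CPM in aged libraries. All 12 HSC markers were present, with a summed level of 4203 to 5291 CPM in young and 4205 to 4729 CPM in aged libraries. Among markers of other cells, the 9 neutrophil and myeloid progenitor genes summed to 46.0 to 129.5 CPM in young and 123 to 182 CPM in aged libraries, with Mpo and Ctsg at 0 in every library and Prtn3 carrying most of the sum. The 8 T and NK cell genes summed to 2.95 to 37.5 CPM and 30.7 to 144 CPM, with Cd3e, Cd3g, Cd8a and Ncr1 at 0 throughout and Klrb1c the highest in aged libraries. The 5 multipotent progenitor genes lay lower in aged libraries, at 66.3 to 155 CPM, than in young ones, at 125 to 349.5 CPM, with Dntt at 0. The 7 monocyte genes reached at most 42.0 CPM, the 9 erythroid genes 93.2 CPM, and the 7 B cell genes 29.2 CPM. The 5 megakaryocyte genes summed to 92.6 to 177 CPM in young (median 122) and 120.4 to 194 CPM in aged libraries (median 168), and the 5 endothelial genes to 68.3 to 120.1 CPM (median 97.1) and 101 to 152 CPM (median 124). Across these lists, Ms4a1, Pax5, Ebf1 and Cdh5 were among those at 0 in every library. The part of these differences in the results below was not tested, and in sorted bulk samples fewer cells of a type and less RNA per cell cannot be told apart.

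The 10 genes lie on 9 chromosomes. In mm10 coordinates of GENCODE release M21, Dnmt1 spans chr9:20907209-20959888 on the minus strand, Uhrf1 chr17:56303321-56323486 on the plus strand, Dnmt3a chr12:3806007-3914443 on the plus strand and Dnmt3b chr2:153649450-153687730 on the plus strand. Tet1 lies at chr10:62804570-62908996, Tet2 at chr3:133463679-133545139 and Tet3 at chr6:83362373-83459084, all on the minus strand. Idh1 lies at chr1:65158616-65186500 and Idh2 at chr7:80094846-80115392, both on the minus strand, and Asxl1 at chr2:153345829-153404007 on the plus strand. Exons of the antisense gene Dnmt3aos overlap those of Dnmt3a, and its highest level was 8.26 CPM. Exons of 2500004C02Rik overlap those of Asxl1 on the opposite strand, with a highest level of 25.9 CPM. Exons of the antisense gene Gm42567 overlap those of Tet2, and this symbol is not in the count table. Whether the counting used strand is not given in the sources used here. Reads of these overlapping pairs may therefore have been split or shared, and those of Gm42567 may have been counted for Tet2.

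The start regions of these genes were looked up in RefSeq sequence of GRCm38.p6, as the 250 bases before each annotated start, because Dnmt1 and Uhrf1 moved together across the libraries and Tet3 had the smallest p-value for age among the 10. All 10 genes matched, with 16 start regions. The regions printed below lie inside the gene spans given above, so longer annotated transcripts may include their sequence. A typical start region of this length held 6 CpG sites, the median of 32851 regions. The Tet2 region held 51, more than 99.9% of all regions, the Tet3 region held 17, and the regions of the other genes held between 2 and 40. The E2F-type motifs TTTGGCGC, TTTCGCGC and TTTCCCGC, searched on both strands, were found in 1.53% of the 32851 regions and in 2 of the 16 regions here, the third of Dnmt1 and the second of Uhrf1. The motif match is in capitals in these 2 sequences, printed 5′ to 3′ along the gene. The Dnmt1 region is chr9:20952624-20952873 on the minus strand, with 26 CpG sites, and the Uhrf1 region is chr17:56304063-56304312 on the plus strand, with 30 CpG sites. Each motif contains CpG, and these Dnmt1 and Uhrf1 regions held more CpG sites than 90.4% and 94.1% of all regions. The share of 1.53% covers regions of every CpG content and is no matched background. A match describes the letters and is no evidence that a factor binds there.
Dnmt1: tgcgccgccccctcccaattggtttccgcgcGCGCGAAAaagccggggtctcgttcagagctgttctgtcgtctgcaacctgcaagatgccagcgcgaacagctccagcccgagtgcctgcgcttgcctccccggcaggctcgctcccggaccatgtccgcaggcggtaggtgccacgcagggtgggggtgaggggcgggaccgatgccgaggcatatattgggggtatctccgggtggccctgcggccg
Uhrf1: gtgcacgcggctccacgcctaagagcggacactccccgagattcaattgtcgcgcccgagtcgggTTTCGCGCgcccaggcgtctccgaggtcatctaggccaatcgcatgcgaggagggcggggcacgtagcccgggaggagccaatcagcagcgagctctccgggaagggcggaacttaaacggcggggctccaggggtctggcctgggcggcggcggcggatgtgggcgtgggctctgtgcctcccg
The Tet3 region, chr6:83441679-83441928 on the minus strand, and the Tet2 region, chr3:133544391-133544640 on the minus strand, are shown for their unlike CpG content, with each CpG site in capitals.
Tet3: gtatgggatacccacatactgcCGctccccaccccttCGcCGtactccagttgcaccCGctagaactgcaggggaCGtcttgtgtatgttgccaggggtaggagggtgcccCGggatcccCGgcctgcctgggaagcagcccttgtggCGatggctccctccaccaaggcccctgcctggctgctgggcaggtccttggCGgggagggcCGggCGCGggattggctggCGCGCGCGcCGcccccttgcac
Tet2: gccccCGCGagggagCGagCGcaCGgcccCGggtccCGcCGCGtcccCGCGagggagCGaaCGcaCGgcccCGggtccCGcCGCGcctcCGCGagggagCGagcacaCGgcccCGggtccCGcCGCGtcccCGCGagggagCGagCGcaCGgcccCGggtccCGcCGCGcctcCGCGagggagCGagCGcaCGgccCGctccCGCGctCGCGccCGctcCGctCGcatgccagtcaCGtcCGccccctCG

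Compared per kilobase of annotated exon, over all 18 libraries, Idh2 and Dnmt1 were the most abundant of the 10 transcripts and Tet1 and Tet2 the least. The mean level was 40.3 ± 7.53 CPM per kb for Idh2 (SD, n = 18 libraries), 36.2 ± 8.69 for Dnmt1, 23.5 ± 2.54 for Asxl1 and 16.1 ± 7.55 for Uhrf1. It was 14.2 ± 4.20 CPM per kb for Dnmt3b, 11.7 ± 2.77 for Idh1, 10.1 ± 1.96 for Tet3, 8.84 ± 2.04 for Dnmt3a, 6.42 ± 2.53 for Tet1 and 5.97 ± 1.21 for Tet2. Among neighbours in this order, Dnmt1 was above Asxl1 in 18 of 18 libraries and Asxl1 above Uhrf1 in 15 of 18. The other neighbours changed places in at least 4 libraries, and Uhrf1 was above Dnmt3b in only 10 of 18. Exon length counts all annotated isoforms, so a gene with long exons that these cells do not use appears lower on this scale. Within the Tet family, Tet3 made up 48.3% ± 7.80 of the length-scaled level in young libraries (SD, n = 9) and 41.9% ± 5.39 in aged libraries. Tet2 made up 27.1% ± 5.04 in young and 26.3% ± 4.07 in aged libraries, and Tet1 24.6% ± 9.0 in young and 31.7% ± 5.25 in aged libraries. The ranges of the ages overlapped for all 3. Among the 3 methyltransferases Dnmt1 made up 62.0% ± 9.38 in young and 59.6% ± 5.11 in aged libraries.

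**Figure D1:**
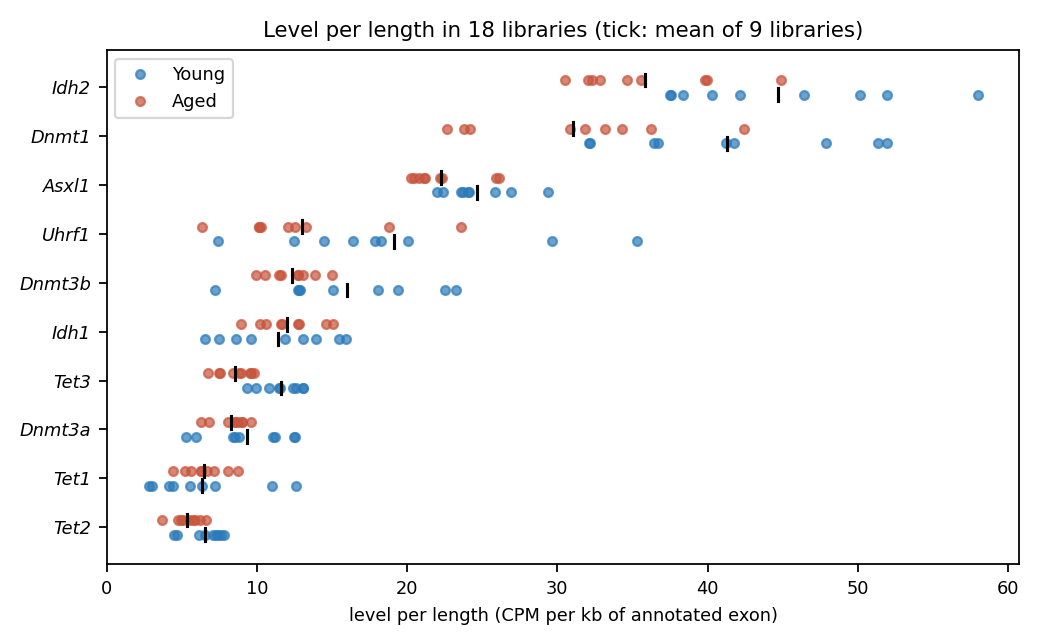
Level per length of the 10 genes, in CPM per kilobase of annotated exon on a linear axis, with a point for each of 18 libraries, blue for young and red for aged, and a black tick at the mean of the 9 libraries of an age. Idh2 and Dnmt1 lie furthest to the right with overall means of 40.3 and 36.2, and Tet1 and Tet2 furthest to the left with 6.42 and 5.97.

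The change with age was examined first within each fraction, as aged over young. None of the 10 genes passed an adjusted p of 0.05 with the quasi-likelihood test of edgeR in any fraction, LT-HSCs, ST-HSCs and bulk-HSCs giving 0 each, against 0.445%, 0.851% and 1.98% of all 12808 genes. At an unadjusted p under 0.05 the counts were 2, 2 and 4 of 10, against 8.81%, 9.67% and 13.3% of all genes. DESeq2 called 2 genes in LT-HSCs (Tet3 and Asxl1), 1 in ST-HSCs (Tet3) and 0 in bulk-HSCs at an adjusted p under 0.05, against 2.27%, 3.51% and 5.81% of the 12756 genes to which it gave an adjusted p. Averaged over the fractions, which uses all 18 libraries, Tet3 and Dnmt1 fell, so that 2 of 10 genes were called, against 6.75% of all genes in either direction and 2.40% lower. DESeq2 called 4 of 10 on average, Tet3, Dnmt1, Uhrf1 and Idh2, against 11.7% of its genes. At an unadjusted p under 0.05 the averaged contrast held 7 of 10, all with lower values in aged mice, against 19.7% of all genes in either direction. A log2 fold change below 0 in all 3 fractions was seen for 7 of 10 genes and for 18.1% of all genes. The median log2 fold change of the 10 was -0.20 for LT-HSCs, -0.39 for ST-HSCs, -0.34 for bulk-HSCs and -0.30 for their average, while that of all genes lay between 0.025 and 0.037. These 10 genes were not drawn at random, and their shared direction is given as a count without a test.

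**Figure D2:**
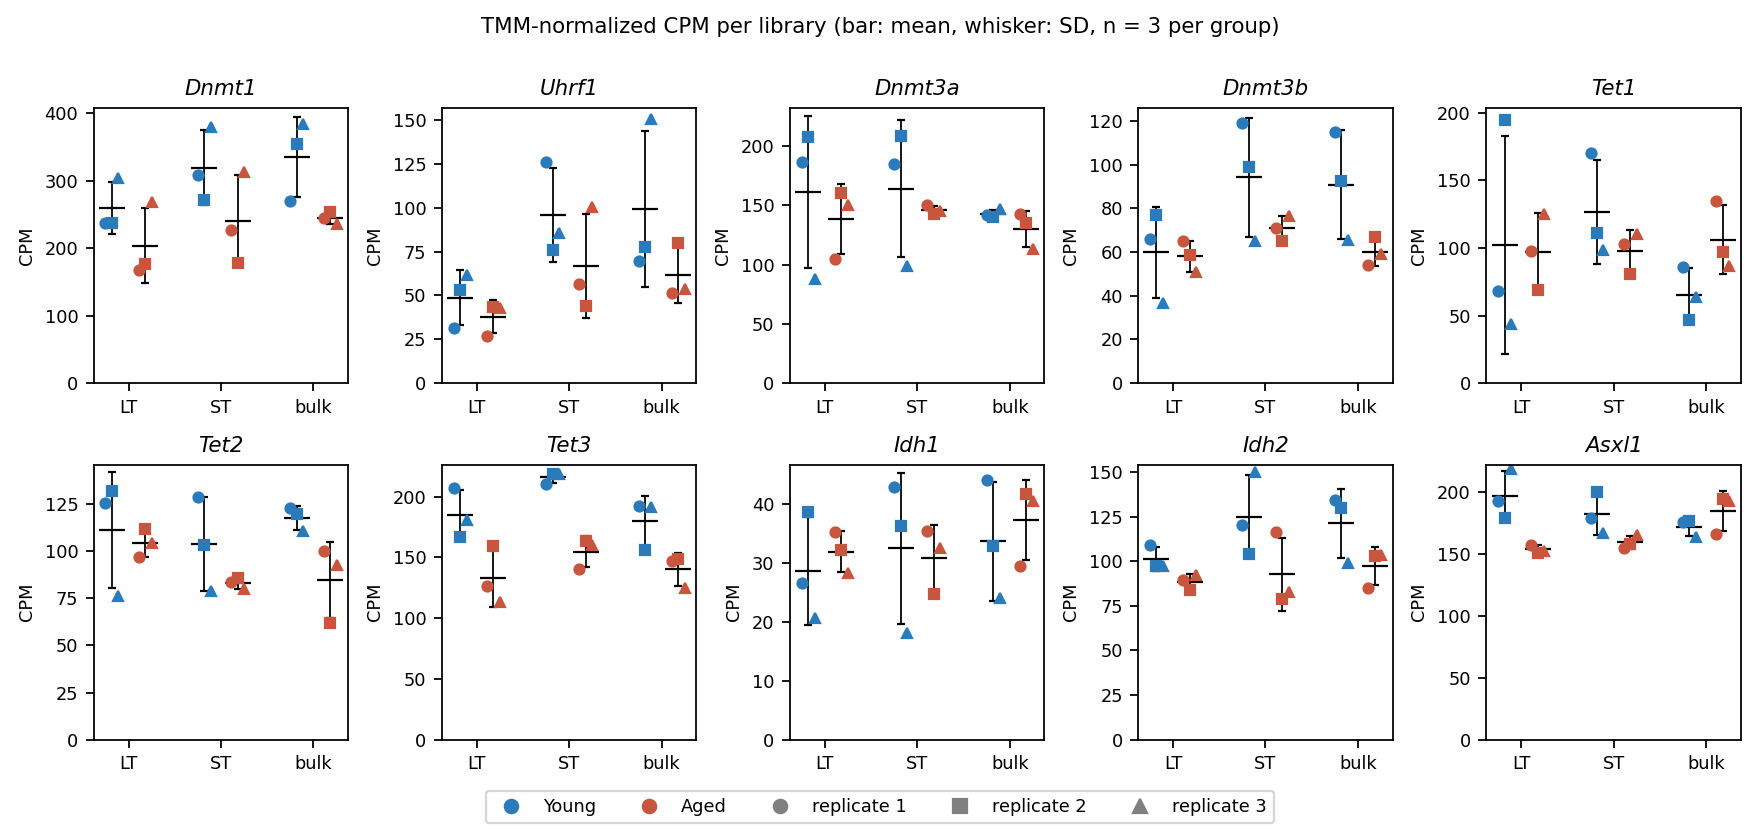
Normalized level of each gene in CPM on a linear axis that starts at 0, by fraction, with blue symbols for the 3 young and red symbols for the 3 aged libraries, the symbol shape giving the replicate number, and a black bar and whisker for mean and SD. In the Tet3 panel all red symbols lie below all blue symbols of the same fraction, and the young triangles in LT-HSCs and ST-HSCs are the lowest of their groups for Dnmt3a, Dnmt3b, Tet2 and Idh1.

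Tet3, the dioxygenase with the highest level per length of its family here, was lower with age in every fraction. Values are CPM of the libraries numbered 1, 2 and 3 in that order, here and below. In LT-HSCs Tet3 stood at 207, 167 and 181 CPM in young and 126, 159 and 113 CPM in aged mice. Tet3 in ST-HSCs was at 210.3, 218 and 219 CPM in young and 141, 163 and 160.4 CPM in aged mice. For bulk-HSCs the Tet3 levels were 193, 156 and 191 CPM in young and 147, 149 and 125 CPM in aged mice. Every aged library lay below every young library of its fraction, in all 3 fractions, a pattern that 0.601% of all genes showed. The fold change was -0.48 on the log2 scale in LT-HSCs (standard error 0.14, edgeR, adjusted p = 0.196), -0.48 in ST-HSCs (standard error 0.14, adjusted p = 0.138) and -0.36 in bulk-HSCs (standard error 0.14, adjusted p = 0.239). On average it fell by 0.44 (standard error 0.081, edgeR, adjusted p = 0.00244), or to 0.738 of the young level. An exact two-sided permutation test of the mean log2(CPM + 1), with age labels exchanged within fractions, gave p = 0.00025, the smallest that its 8000 arrangements allow. That number of arrangements treats the fractions as independent. With each of the 18 libraries left out in turn the adjusted p stayed between 0.000885 and 0.00758. With detected genes added as a covariate, a number that itself differed with age, the fall was 0.36 and the adjusted p = 0.231. The genes whose level followed that of Tet3 most closely across the 18 libraries were Arhgap4 (r = 0.87), Slc28a2 (r = 0.86) and Rere (r = 0.85).

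Dnmt1, the maintenance methyltransferase, was lower on average with age but overlapped between the ages in LT-HSCs and ST-HSCs. In LT-HSCs Dnmt1 stood at 238, 237 and 304 CPM in young and 167, 176 and 268 CPM in aged mice. Dnmt1 in ST-HSCs was at 308, 271 and 379 CPM in young and 227, 178 and 313 CPM in aged mice. For bulk-HSCs the Dnmt1 levels were 269, 353 and 383 CPM in young and 245, 253 and 235 CPM in aged mice. In bulk-HSCs every aged library lay below every young library, and in the other fractions the aged library numbered 3 lay among the young ones. The log2 fold change was -0.35 in LT-HSCs (standard error 0.21, edgeR, adjusted p = 0.719), -0.41 in ST-HSCs (standard error 0.21, adjusted p = 0.561) and -0.46 in bulk-HSCs (standard error 0.21, adjusted p = 0.348). On average Dnmt1 fell by 0.41 (standard error 0.12, edgeR, adjusted p = 0.0492), to 0.754 of the young level, and the exact permutation test gave p = 0.00725. The call lies close to the threshold. It held in 5 of the 18 fits with a library left out, those without young LT-HSCs 2, young ST-HSCs 2, young bulk-HSCs 1, aged LT-HSCs 3 or aged ST-HSCs 3, and the adjusted p ranged from 0.0158 to 0.105 over all 18. With detected genes as a covariate the fall was 0.15 with an adjusted p = 0.851.

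Uhrf1, the partner that directs Dnmt1 to replicated DNA, varied most with fraction. In LT-HSCs Uhrf1 stood at 31.5, 53.0 and 61.7 CPM in young and 27.1, 43.3 and 43.1 CPM in aged mice. Uhrf1 in ST-HSCs was at 126, 76.0 and 85.4 CPM in young and 56.6, 43.8 and 100.4 CPM in aged mice. For bulk-HSCs the Uhrf1 levels were 69.8, 77.8 and 150.5 CPM in young and 51.5, 80.1 and 53.4 CPM in aged mice. Young and aged libraries overlapped in each fraction, and LT-HSCs were the lowest fraction at both ages. The log2 fold change with age was -0.37 in LT-HSCs (standard error 0.35), -0.52 in ST-HSCs (standard error 0.35) and -0.69 in bulk-HSCs (standard error 0.35), and -0.52 on average (standard error 0.20, edgeR, adjusted p = 0.146). With DESeq2 the Uhrf1 average was -0.54 (adjusted p = 0.0435). The exact permutation test gave p = 0.0323, and between 0.0108 and 0.0673 with a library left out, so that 9 of the 18 fits passed 0.05 and 9 did not. Uhrf1 and Dnmt1 had the highest correlation of any pair among the 10 genes (Pearson r = 0.80 over 18 libraries).

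Levels of these maintenance genes moved with genes of DNA replication and division. The 3 genes most like Dnmt1 across the 18 libraries were Top2a, Mki67 and Mcm2 (r = 0.92 for each), and those most like Uhrf1 were Hist1h2ag (r = 0.87), Atad2 (r = 0.87) and Cdt1 (r = 0.86). Hist1h2ag has near-identical copies, and its counts are uncertain. These correlations describe libraries that share age, fraction and depth, and carry no test. Of 34 cell cycle genes 33 were tested, 32 had a log2 fold change below 0 averaged over the fractions, and 7 fell, namely Mki67, Top2a, Mcm2, Mcm3, Mcm4, Mcm5 and Mcm6, the last 5 being subunits of the replicative helicase. Of all 12808 genes 45.3% had an averaged log2 fold change below 0 and 2.40% fell. Mcm6 fell by 0.66 (standard error 0.11, edgeR, adjusted p = 0.000855), Mcm3 by 0.59 (standard error 0.11, adjusted p = 0.00202) and Mcm4 by 0.54 (standard error 0.11, adjusted p = 0.00677). Their median log2 fold change was -0.54 against 0.037 for all genes. The summed level of the 34 genes ran from 1324 to 2453 CPM in young and from 842 to 1867 CPM in aged libraries. Its part in the lower Dnmt1 and Uhrf1 levels was not tested.

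**Figure D3:**
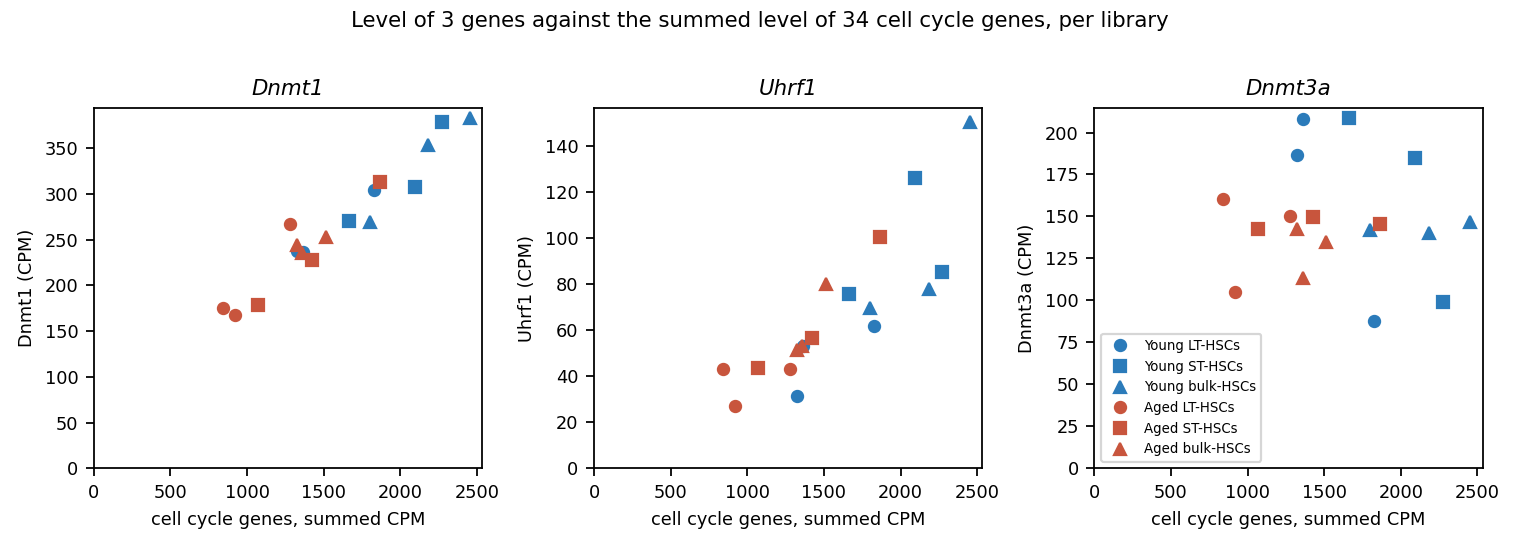
Level of Dnmt1, Uhrf1 and Dnmt3a in CPM against the summed CPM of 34 cell cycle genes, on linear axes from 0, with a point for each of 18 libraries coloured by age and shaped by fraction. Dnmt1 rises along the horizontal axis from 167 to 383 CPM, while the lowest Dnmt3a point, 88.0 CPM, is a young LT-HSC library with a cell cycle sum of 1826 CPM.

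Dnmt3a, a de novo methyltransferase, was not called, and its libraries spread widely in young mice. In LT-HSCs Dnmt3a stood at 187, 208 and 88.0 CPM in young and 105, 161 and 151 CPM in aged mice. Dnmt3a in ST-HSCs was at 185, 209 and 99.0 CPM in young and 150.0, 143 and 145 CPM in aged mice. For bulk-HSCs the Dnmt3a levels were 142, 140.4 and 147 CPM in young and 143, 135 and 113 CPM in aged mice. The young LT-HSC and ST-HSC libraries numbered 3 were the lowest of all 18 for Dnmt3a, at less than the lowest aged library, and the ages overlapped in each fraction. Aged over young, the log2 value was -0.21 in LT-HSCs (standard error 0.27), -0.17 in ST-HSCs (standard error 0.27), -0.14 in bulk-HSCs (standard error 0.27) and -0.17 on average (standard error 0.16, edgeR, adjusted p = 0.629), with an exact permutation p = 0.464. Without the young LT-HSC and ST-HSC libraries numbered 3, an alternative chosen after seeing the data, the average was -0.36 (standard error 0.087, edgeR, adjusted p = 0.0202). With detected genes as a covariate the Dnmt3a average was -0.74 (standard error 0.17, adjusted p = 0.0358). These 2 libraries also held the fewest detected genes, and the part of that in the Dnmt3a level was not tested.

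Dnmt3b, the other de novo methyltransferase, was highest in young ST-HSCs and bulk-HSCs. In LT-HSCs Dnmt3b stood at 65.8, 77.0 and 36.8 CPM in young and 64.9, 58.7 and 50.7 CPM in aged mice. Dnmt3b in ST-HSCs was at 119, 99.0 and 65.0 CPM in young and 70.8, 65.2 and 76.5 CPM in aged mice. For bulk-HSCs the Dnmt3b levels were 115, 92.4 and 65.4 CPM in young and 53.9, 66.9 and 59.2 CPM in aged mice. The ages overlapped in each fraction, and the young LT-HSC library numbered 3 was the lowest of all 18. The log2 fold change was -0.045 in LT-HSCs (standard error 0.26), -0.41 in ST-HSCs (standard error 0.26), -0.60 in bulk-HSCs (standard error 0.26, edgeR, adjusted p = 0.317) and -0.35 on average (standard error 0.15, adjusted p = 0.196), with an exact permutation p = 0.089. Without the young LT-HSC and ST-HSC libraries numbered 3 the average was -0.51 (standard error 0.12, edgeR, adjusted p = 0.0144), and with detected genes as a covariate Dnmt3b was at -0.82 (standard error 0.18, adjusted p = 0.0333).

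Tet1, another dioxygenase of the family, had no common direction. In LT-HSCs Tet1 stood at 68.0, 195 and 44.1 CPM in young and 97.5, 68.7 and 125 CPM in aged mice. Tet1 in ST-HSCs was at 170.1, 111 and 98.5 CPM in young and 103, 81.0 and 110.1 CPM in aged mice. For bulk-HSCs the Tet1 levels were 85.6, 46.6 and 63.9 CPM in young and 135, 96.9 and 86.8 CPM in aged mice. A single young LT-HSC library, the one numbered 2, was the highest of all 18, and in bulk-HSCs every aged library lay above every young one. Its log2 fold change with age was -0.073 in LT-HSCs (standard error 0.40), -0.37 in ST-HSCs (standard error 0.40), 0.70 in bulk-HSCs (standard error 0.40, edgeR, adjusted p = 0.519) and 0.087 on average (standard error 0.23, adjusted p = 0.912). Without young LT-HSCs 2 the LT-HSC value turned to 0.78, and with detected genes as a covariate the bulk-HSC value turned to -0.16.

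Tet2, the family member most often mutated in human clonal hematopoiesis, was lower in aged bulk-HSCs without overlap. In LT-HSCs Tet2 stood at 125, 132 and 76.2 CPM in young and 96.8, 112 and 105 CPM in aged mice. Tet2 in ST-HSCs was at 129, 103 and 78.9 CPM in young and 83.5, 85.6 and 79.7 CPM in aged mice. For bulk-HSCs the Tet2 levels were 123, 119.5 and 110.4 CPM in young and 99.8, 62.0 and 92.7 CPM in aged mice. In LT-HSCs and ST-HSCs the young library numbered 3 lay below the aged ones. With age its log2 fold change was -0.092 in LT-HSCs (standard error 0.21), -0.32 in ST-HSCs (standard error 0.21), -0.47 in bulk-HSCs (standard error 0.21, edgeR, adjusted p = 0.342) and -0.29 on average (standard error 0.12, adjusted p = 0.180), with an exact permutation p = 0.0508. Without the young LT-HSC and ST-HSC libraries numbered 3 the average was -0.42 (standard error 0.097, edgeR, adjusted p = 0.0147), and with detected genes as a covariate Tet2 was at -0.68 (standard error 0.15, adjusted p = 0.0340).

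Idh2, the mitochondrial isocitrate dehydrogenase, was lower in each fraction without passing the adjusted threshold of edgeR. In LT-HSCs Idh2 stood at 109, 97.1 and 97.2 CPM in young and 89.6, 83.7 and 92.1 CPM in aged mice. Idh2 in ST-HSCs was at 120.1, 104 and 150.1 CPM in young and 116, 79.0 and 83.0 CPM in aged mice. For bulk-HSCs the Idh2 levels were 134, 129.8 and 99.3 CPM in young and 85.0, 103 and 104 CPM in aged mice. The libraries of the ages did not overlap in LT-HSCs, and in ST-HSCs and bulk-HSCs a single library made them overlap. The log2 fold change was -0.19 in LT-HSCs (standard error 0.17), -0.43 in ST-HSCs (standard error 0.17), -0.32 in bulk-HSCs (standard error 0.17) and -0.31 on average (standard error 0.10, edgeR, adjusted p = 0.0732). With DESeq2 the Idh2 average was -0.33 (adjusted p = 0.0181) and with library size alone in edgeR it was -0.34 (adjusted p = 0.0429), both past the threshold. The exact permutation test gave p = 0.006, and between 0.0015 and 0.0158 with a library left out. Idh1, the cytosolic enzyme, ran from 18.2 to 44.2 CPM in young and from 24.7 to 41.7 CPM in aged libraries, with a median of 32.9 and 32.4 CPM, and its average log2 fold change was 0.076 (standard error 0.19, edgeR, adjusted p = 0.904). The log2 ratio of Idh1 to Idh2 within a library, scaled by exon length, was -2.02 ± 0.52 in young (SD, n = 9) and -1.58 ± 0.17 in aged libraries (SD, n = 9), a difference of 0.44 (exact permutation p = 0.0255, or 0.102 after Benjamini-Hochberg adjustment over the 4 ratios computed). Without the young LT-HSC and ST-HSC libraries numbered 3, both low for Idh1, the difference was 0.20 (exact permutation p = 0.126). The other 3 ratios differed by -0.29 for Dnmt1 to Dnmt3a (exact permutation p = 0.266), 0.18 for Dnmt3a to Dnmt3b (p = 0.252, exact) and 0.16 for Tet2 to Tet3 (p = 0.331, exact).

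Asxl1 was the steadiest of the 10 genes, with a highest library at 1.45 times the lowest. In LT-HSCs Asxl1 stood at 193, 179 and 219 CPM in young and 157, 151 and 152 CPM in aged mice. Asxl1 in ST-HSCs was at 179, 200.4 and 167 CPM in young and 155, 158 and 165 CPM in aged mice. For bulk-HSCs the Asxl1 levels were 175, 176 and 164 CPM in young and 166, 195 and 193 CPM in aged mice. The aged LT-HSC and ST-HSC libraries lay below all young ones of their fraction, and in bulk-HSCs the ages overlapped with 2 of the aged libraries the highest. The log2 fold change was -0.36 in LT-HSCs (standard error 0.11, edgeR, adjusted p = 0.236), -0.19 in ST-HSCs (standard error 0.11, adjusted p = 0.662) and 0.10 in bulk-HSCs (standard error 0.11, adjusted p = 0.833). The difference between the age effects in LT-HSCs and bulk-HSCs was -0.46 (standard error 0.16, edgeR, unadjusted p = 0.0087, adjusted p = 0.698). On average the change was -0.15 (standard error 0.064, adjusted p = 0.197), with an exact permutation p = 0.0463 that rose above 0.05 in 12 of the 18 fits with a library left out, to at most 0.108.

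**Figure D4:**
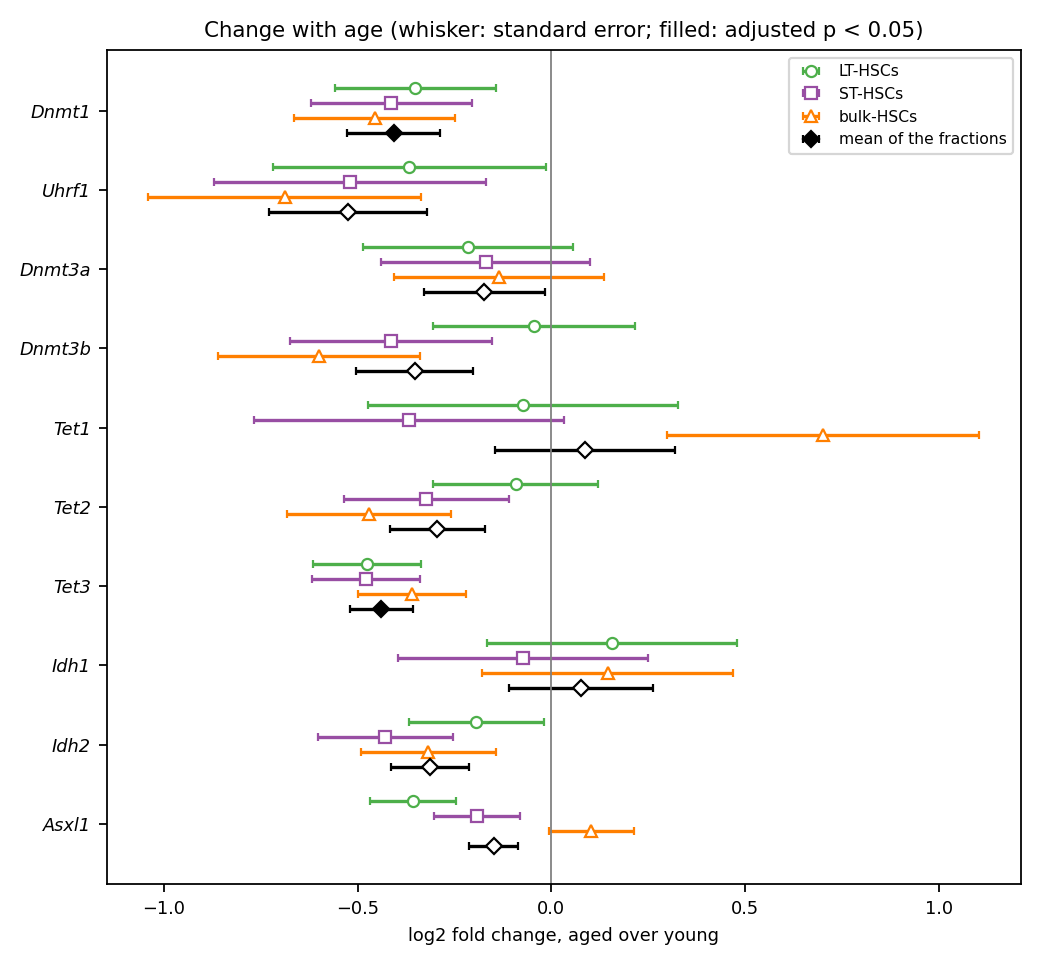
Log2 fold change of the 10 genes, aged over young, on a linear axis, with whiskers of 1 standard error, for LT-HSCs (green circles), ST-HSCs (purple squares), bulk-HSCs (orange triangles) and their average (black diamonds), with filled symbols for an adjusted p under 0.05. The only filled symbols are the averages of Dnmt1, at -0.41, and Tet3, at -0.44.

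No gene of the 10 passed the test for an age effect that differs between fractions. The interaction tests called 0 of 10 for each of the 3 pairs of fractions with edgeR, against 0%, 0.00781% and 0.0625% of all genes, and Asxl1 in LT-HSCs against bulk-HSCs was the only one with an unadjusted p under 0.05, giving 0, 1 and 0 of 10 against 3.92%, 5.82% and 5.78% of all genes. Counted by libraries that do not overlap between the ages, 3 of 10 genes lay lower in aged LT-HSCs (Tet3, Idh2 and Asxl1), 2 in aged ST-HSCs (Tet3 and Asxl1) and 3 in aged bulk-HSCs (Dnmt1, Tet2 and Tet3). The same was true of 5.89%, 7.51% and 9.29% of all genes.

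The fractions were compared next, which asks whether the long-term cells differ from the others in this machinery. With edgeR 0 of 10 genes passed in each of the 6 comparisons, against 0.429%, 0.273% and 0.164% of all genes in young mice for LT-HSCs over ST-HSCs, LT-HSCs over bulk-HSCs and ST-HSCs over bulk-HSCs. In aged mice the shares of all genes were 0.00781%, 0% and 0%. DESeq2 also called 0 of 10 in each, against 3.03%, 3.43% and 2.41% of its 12756 genes in young mice and 0.431%, 0.251% and 0.321% in aged mice. At an unadjusted p under 0.05 the counts in young mice were 2, 2 and 1 of 10, against 10.4%, 11.5% and 9.63% of all genes, and in aged mice 1, 1 and 0 of 10, against 3.41%, 3.29% and 2.70%. Uhrf1 was lower in young LT-HSCs by a log2 fold change of -0.98 against ST-HSCs (standard error 0.35, edgeR, adjusted p = 0.312) and -1.03 against bulk-HSCs (standard error 0.35, adjusted p = 0.264). In aged mice Uhrf1 was lower in LT-HSCs by a log2 fold change of -0.82 against ST-HSCs (standard error 0.35, edgeR, adjusted p = 1). The 3 young LT-HSC libraries of Uhrf1 lay below all young ST-HSC and bulk-HSC libraries. For Dnmt3b the values in young LT-HSCs were -0.65 against ST-HSCs (standard error 0.26, edgeR, adjusted p = 0.364) and -0.60 against bulk-HSCs (standard error 0.26, adjusted p = 0.378). Tet1 was at 0.95 in young ST-HSCs over bulk-HSCs (standard error 0.40, adjusted p = 0.442) and Asxl1 at -0.27 in aged LT-HSCs over bulk-HSCs (standard error 0.11, adjusted p = 1). The young fractions differed in cell cycle level as well, with a median log2 fold change of the 33 tested cell cycle genes of -0.38 for LT-HSCs over ST-HSCs and -0.56 for LT-HSCs over bulk-HSCs, and the part of this in the Uhrf1 and Dnmt3b values was not tested.

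**Figure D5:**
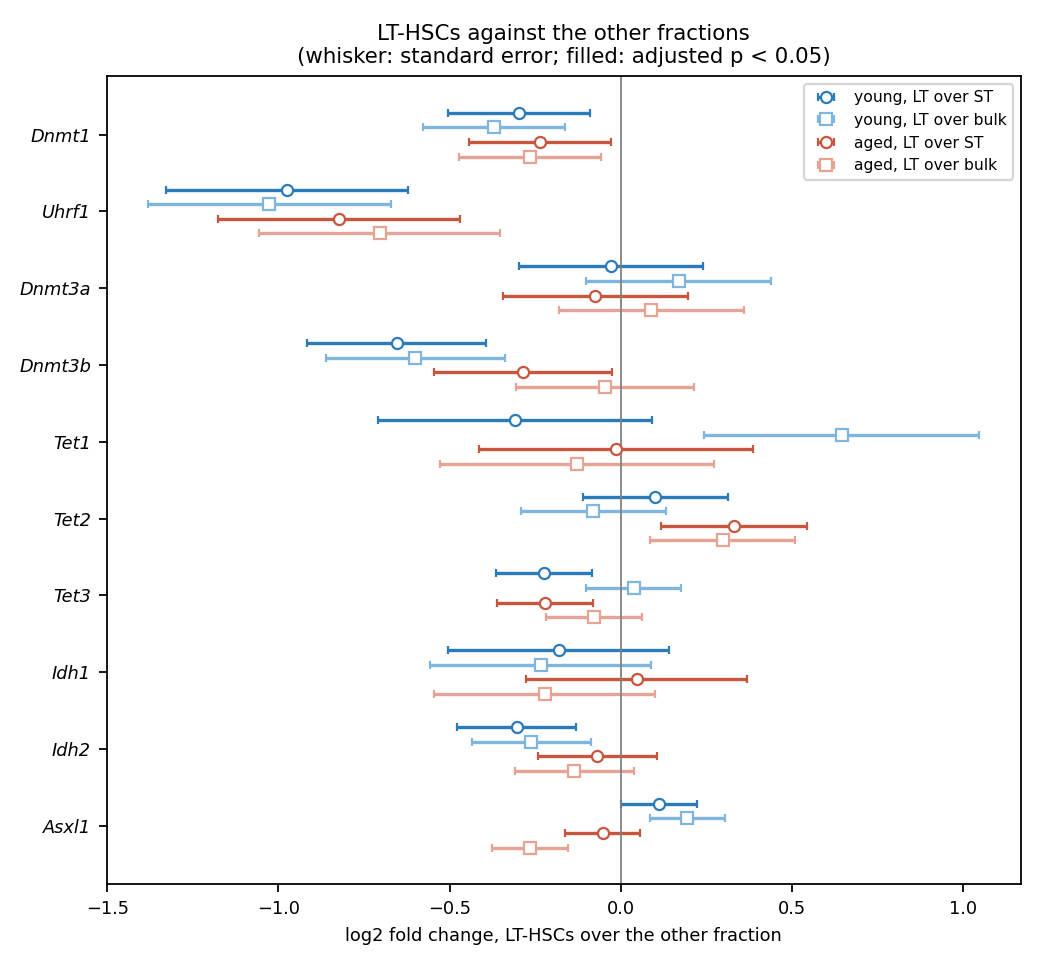
Log2 fold change of the 10 genes in LT-HSCs over ST-HSCs (circles) and over bulk-HSCs (squares), in blue for young and red for aged mice, on a linear axis with whiskers of 1 standard error. No symbol is filled, since no adjusted p was under 0.05, and Uhrf1 lies furthest to the left, at -0.98 and -1.03 in young mice.

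Genes that act beside these enzymes were taken from lists written for this pathway. On average over the fractions 6.75% of all 12808 genes were called in either direction and 2.40% lower. Calls below are of single genes, and no list was tested as a set. Of 16 partners in reading or maintaining methylation, all were tested, 0 were called on average over the fractions with edgeR and 13 had a log2 fold change below 0, with a median of -0.20 against 0.037 for all genes. Among those with the smallest p-values were Lig1, a ligase that joins Okazaki fragments, at -0.59 (standard error 0.21, adjusted p = 0.0994), and Cdca7, a partner of the remodeller Hells, at -0.32 (standard error 0.12, adjusted p = 0.119). Of 18 Tet cofactors and genes of active demethylation in the count table, 14 were tested and 1 fell, Parp1, a sensor of DNA breaks, by 0.44 (standard error 0.092, edgeR, adjusted p = 0.00663), from 227 ± 45.6 to 167 ± 18.98 CPM (SD, n = 9 libraries each). Vprbp was at -0.31 (standard error 0.093, edgeR, adjusted p = 0.0521). Tdg, the glycosylase that removes oxidized methylcytosine, was at 0.86 (standard error 0.27, adjusted p = 0.0694), and the median of the list was 0.078.

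Of 18 genes of one-carbon metabolism and methyl donor supply, 17 were tested, with 1 higher and 1 lower with age on average. Of all genes 6.75% were called in either direction, and the median of the list was -0.21. Ahcy, the hydrolase that removes the methyltransferase inhibitor S-adenosylhomocysteine, fell by 0.45 (standard error 0.13, edgeR, adjusted p = 0.0426), from 76.0 ± 15.7 to 56.4 ± 12.98 CPM (SD, n = 9). Its relative Ahcyl2 rose by 0.69 (standard error 0.17, edgeR, adjusted p = 0.017), from 24.3 ± 6.46 to 39.5 ± 6.56 CPM (SD, n = 9). Mtr, the methionine synthase, was at -0.36 (standard error 0.12, adjusted p = 0.0771). Of 22 genes of 2-oxoglutarate, succinate and fumarate metabolism, 20 were tested and 0 were called on average with edgeR. In bulk-HSCs, where 1.98% of all genes were called, 1 gene of this list was. Glud1, which makes 2-oxoglutarate from glutamate, rose there by 0.46 (standard error 0.12, edgeR, adjusted p = 0.0467). The median of that list was -0.034. Within a single fraction no other gene of these lists passed.

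Of 9 Asxl paralogs and Bap1 partners, all tested, 0 were called on average with edgeR, with a median of 0.012. The smallest p was that of Mbd6, at -0.37 (standard error 0.12, edgeR, adjusted p = 0.0809), and Bap1 itself was at -0.21 (standard error 0.093, adjusted p = 0.202). Of 32 other genes mutated in clonal hematopoiesis, all tested, 1 was higher and 1 lower on average, against 6.75% of all genes in either direction. The median of this list was 0.010. Bcorl1, a relative of the corepressor Bcor, fell by 0.66 (standard error 0.13, edgeR, adjusted p = 0.00555), from 84.3 ± 15.2 to 53.5 ± 9.49 CPM (SD, n = 9). Gata2, a transcription factor of HSCs, rose by 0.29 (standard error 0.063, edgeR, adjusted p = 0.00817), from 352 ± 43.1 to 430.3 ± 22.3 CPM (SD, n = 9).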

How the data were processed

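The authors sequenced rRNA-depleted RNA, used HISAT2 for alignment to mm10 and StringTie 1.3.4d for quantification, and deposited counts of reads per gene symbol, whole numbers without normalization; how the counts were derived from the StringTie output is not given in the sources used here. All 18 columns were used, with groups taken from the sample titles.

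Counts were normalized with TMM factors in edgeR 4.0.16 (R 4.3.3). Genes averaging 1 CPM or more, 12808 of 24421, entered one quasi-likelihood fit of the 6 group means, with Benjamini-Hochberg adjustment over all of them and a threshold of 0.05. Standard errors came from the fold change and the F statistic. Single values were compared with an exact two-sided permutation test of log2(CPM + 1), age labels exchanged within fractions, over 8000 arrangements, and 3 libraries against 3 cannot go below p = 0.1. Labels were exchanged in each fraction separately. If equal replicate numbers marked the same mice, the limit of 0.1 in this permutation test would hold for the joined fractions too. Levels per length used exon unions of GENCODE M21. Alternatives used limma 3.58.1 and DESeq2 1.42.0, other scalings and filters, a replicate block, detected genes as a covariate, and each library left out. Leaving out both young libraries numbered 3 of LT-HSCs and ST-HSCs was chosen after seeing the data.

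The 10 genes and all gene and marker lists were chosen with earlier results of these data known. By the rule for naming genes, the text gives all 10 genes for age, those with an unadjusted p under 0.05 between fractions, marker genes, up to 3 genes of each list with the smallest p and up to 3 genes most correlated with a member. The other called cell cycle genes were named after their values were seen. On simulated data with 200 genes changed 4-fold, the averaged age contrast recovered 158 with 6 false calls among 12808 genes, and the single fractions recovered 118, 127 and 124. Smaller changes, such as that of Tet3 to 0.738 of the young level, were not simulated. Recovery at 4-fold does not show how often they would be called. Values of some single list genes are not reported here.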

Additional observations from a re-analysis of the deposited data

How the results depend on the processing

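The average fall of Tet3 was called under 10 of 11 alternatives and in 18 of 18 fits with a library left out. It was not called with detected genes as a covariate (adjusted p = 0.231), a fit that instead called Dnmt3a, Dnmt3b and Tet2. Dnmt1 was called under 8 of 11, not so without Rn45s, with that covariate or without both young libraries numbered 3 of LT-HSCs and ST-HSCs. The single symbol Rn45s held 12.8% to 15.5% of the counts in young and 14.3% to 17.4% in aged libraries. The number of genes called on average was 1 without Rn45s (Tet3) and 1 to 3 with a library left out. It was 4 with limma-voom quality weights (Tet3, Dnmt1, Dnmt3b and Tet2), 4 with DESeq2 (Tet3, Dnmt1, Uhrf1 and Idh2) and 4 without both of those young libraries (Tet3, Dnmt3a, Dnmt3b and Tet2). Library size alone added Idh2. DESeq2 called 2 genes in LT-HSCs and 1 in ST-HSCs. Values below are log2 differences, aged minus young, and the cause of each change was not tested.

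Without both young libraries numbered 3, the permutation test gave -0.36 for Dnmt3a, -0.49 for Dnmt3b and -0.42 for Tet2, now under 0.05, and -0.46 for Uhrf1, no longer so. It gave -0.023 for Tet1 and -0.069 for Idh1, with the sign turned, as it was for the ratio of Dnmt1 to Dnmt3a at 0.032, and the Idh1 to Idh2 ratio was 0.20. In the edgeR fit Idh1 turned to -0.041 in LT-HSCs and -0.081 on average, and Tet1 to -0.083 on average. In the permutation test Tet2 passed 0.05 at -0.31 with library size alone. With detected genes as a covariate Idh1 turned to -0.35 in LT-HSCs, -0.59 in bulk-HSCs and -0.48 on average, and Tet1 to -0.16 in bulk-HSCs and -0.52 on average. Idh1 was at -0.0070 on average with quality weights.

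With a library left out, the permutation values ran from -0.62 to -0.39 for Uhrf1, -0.41 to -0.23 for Dnmt3b, -0.36 to -0.21 for Tet2, -0.00088 to 0.20 for Idh1 and -0.17 to -0.12 for Asxl1, and the ratios from 0.12 to 0.27 for Dnmt3a to Dnmt3b and 0.27 to 0.53 for Idh1 to Idh2. The Idh1 to Idh2 p rose above 0.05 without young LT-HSCs 1 or 3, young ST-HSCs 3, aged LT-HSCs 1 or aged ST-HSCs 3, and that of Dnmt3b and of Tet2 fell under it without young LT-HSCs 3 or young ST-HSCs 3, for Tet2 also without aged bulk-HSCs 1 or 3. In the edgeR fit Idh2 was called on average without young ST-HSCs 2, young bulk-HSCs 3 or aged ST-HSCs 1 (adjusted p of 0.0456, 0.0391 and 0.0272). In LT-HSCs the range was -0.30 to 0.16 for Dnmt3b, -0.43 to 0.78 for Tet1, -0.30 to 0.034 for Tet2 and -0.031 to 0.42 for Idh1, in ST-HSCs -0.42 to 0.041 for Dnmt3a and -0.35 to 0.18 for Idh1, and in bulk-HSCs -0.049 to 0.39 for Idh1. On average it was -0.033 to 0.38 for Tet1 and -0.019 to 0.17 for Idh1.

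Libraries with the same replicate number correlated between -0.044 and 0.12 in their deviations from the group means, with 1 of 18 pairs above 0.1. The numbers were not taken as pairs. Between LT-HSCs and ST-HSCs these correlations were 0.017, 0.12 and 0.093 in young and 0.051, 0.055 and 0.095 in aged libraries. For unlike numbers of these 2 fractions they ran from -0.11 to 0.028. Equal numbers that involved bulk-HSCs gave -0.044 to 0.038. Whether LT-HSC and ST-HSC libraries of equal number share mice is not known. With the replicate block the counts stayed at 0, 0, 0 and 2 genes, Tet3 being at -0.44 and Dnmt1 at -0.41 on average, and with limma-voom and a replicate block by age Tet1 turned to 0.12 in LT-HSCs. The number of all genes called ran from 9 to 290 in LT-HSCs (57 as reported), 27 to 448 in ST-HSCs (109), 82 to 741 in bulk-HSCs (253) and 153 to 1494 on average (864). In bulk-HSCs 77.5% of the calls were higher with TMM factors and 66.7% with library size alone.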

Other observations

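The spread between libraries of a group, pooled over the fractions on the log2(CPM + 1) scale, was larger in young than in aged libraries for 8 of the 10 genes and for 84.8% of all 12808 genes, with a median SD of 0.49 in young and 0.28 in aged libraries. Dnmt3a had an SD of 0.51 in young and 0.21 in aged libraries, Dnmt3b 0.47 and 0.15, and Tet1 0.72 and 0.34. The exceptions were Dnmt1, at 0.24 and 0.32, and Tet3, at 0.14 and 0.18.

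Among the genes most correlated with the remaining members over the 18 libraries, which share age, fraction and depth, were Rbm10 for Dnmt3a (r = 0.84), Exosc7 for Dnmt3b (r = 0.88), Galnt11 for Tet1 (r = 0.79), Insr for Tet2 (r = 0.88), Pcgf3 for Idh1 (r = 0.86), Scarb1 for Idh2 (r = 0.86) and Tbc1d16 for Asxl1 (r = 0.82). Within the 10, Dnmt3a went with Tet2 (r = 0.61) and Dnmt3b with Idh1 (r = 0.61). These 4 genes were all at their group's lowest in the young LT-HSC and ST-HSC libraries numbered 3.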
